A study of Cochliomyia hominivorax with 18 samples.

Results

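Transcripts far more abundant in larval than in adult control midguts of the New World screwworm fly, and lying next to another such transcript in the gene numbering, number 61 of the 22420 predicted transcripts listed. They were chosen from the control libraries alone. A candidate was the first listed transcript of a gene number (ID ending .t1) with a mean of at least 5 CPM (counts times 1000000 over the library's total) in larval controls. Its larval control mean also had to be at least 16 times its adult control mean, with 0.1 CPM added to both. A total of 246 transcripts met these thresholds, and the 61 members are the candidates whose gene number plus or minus 1 is also a candidate. Every member is the only listed transcript of its gene number and is called here by that number. The table pairs no gene names with its IDs, so no member is given a name or a function.

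Midgut RNA of production flies of Cochliomyia hominivorax was sequenced at 2 stages, adult and larva, in relation to rearing with tetracycline (Tc), an antibiotic that blocks bacterial protein synthesis. Each stage has 3 groups, which are post-Tc (taken after rearing with it), on-Tc (taken during it) and control (before it, as the series' design reads). The 6 groups hold 3 libraries each, numbered 1 to 3, and adult libraries total 19158409 to 79783813 counts, larval libraries 30221028 to 78052370. The labels give no age, sex, dose or duration, nor whether the libraries of a group come from separate animals, cages or days. Treatment and time of collection therefore cannot be told apart, and p-values measure the spread between these libraries. The labelled tissue was not checked against marker genes, since no gene names were at hand.

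Screwworm larvae live in wounds of warm-blooded animals and feed on their living tissue, whereas the adult fly takes liquid food. The fly midgut secretes digestive enzymes, takes up nutrients and lies between the body and the microbes that are eaten. In insect genomes, genes that arose by tandem duplication often lie side by side and may share regulation, and digestive enzyme genes are a well-known example. These are general facts about flies, and whether any member is such a gene is not known from the table.

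The members fall into 26 runs of consecutive gene numbers, of which 19 hold 2 members, 5 hold 3 and 2 hold 4. The 4-member runs are g5949 to g5952 and g6637 to g6640. In all 26 runs the members also stand on adjacent rows of the table, but no map was used here, so distance and strand are unknown. Members make up 24.8% of the candidates, and the other 185 candidates stand alone. In the libraries used for the choice, adult control means had a median of 0.612 CPM and a highest value of 185.5 CPM, against a median of 201 CPM and a range of 7.38 to 13827 CPM in larval controls. The ratio of larval over adult control mean ran from 16.4 to 1910, with a median of 125. These values define the members and carry no test. Nearest inside the ratio threshold were g11370 at 16.4 and g13042 at 17, and nearest outside it, beside a candidate, were g19500 at 14.4 and g14427 at 13.7. Nearest inside the level threshold were g14349 at 7.38 CPM and g6643 at 8.30 CPM, and nearest outside it were g4771 at 4.53 CPM and g3058 at 3.85 CPM.

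The members together took a large part of larval libraries and almost none of adult ones, with or without tetracycline. They held 0.144%, 0.0918% and 0.0515% of the counts of the adult post-Tc libraries and 8.91%, 7.06% and 9.65% of the larval post-Tc libraries. On tetracycline they held 0.186%, 0.129% and 0.145% in adults, against 9.42%, 5.66% and 7.64% in larvae. In the controls that served the choice they held 0.124%, 0.09% and 0.054% in adults and 5.23%, 11.1% and 7.89% in larvae. The 3 adult on-Tc shares lay above the 3 adult control shares, with no test made of the summed level, and the shares of the other treatment groups of a stage overlapped. Because members were chosen for a low level in adult controls, a higher level in any other adult group is favoured by the choice. The run g5949 to g5952 held 1520.6, 265.3 and 579.3 CPM in adult on-Tc libraries, against 136.5, 647.8 and 189.9 CPM in adult controls. The run g11368 to g11370 held 196.3, 519.3 and 579.4 CPM on-Tc, against 433.4, 42.3 and 106.3 CPM. Adult means were 0.0957% ± 0.0462 post-Tc, 0.153% ± 0.0289 on-Tc and 0.0893% ± 0.0349 in controls (SD, n = 3 each). Larval means were 8.54% ± 1.34 post-Tc, 7.58% ± 1.88 on-Tc and 8.06% ± 2.92 in controls (SD, n = 3 each). A few members held most of this: the 5 highest took 54.4% of the members' CPM over the 6 larval tetracycline libraries. A transcript's share of counts depends on its length, which is not given in the sources used here, so levels are compared between libraries and not between transcripts.

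**Figure D1:**
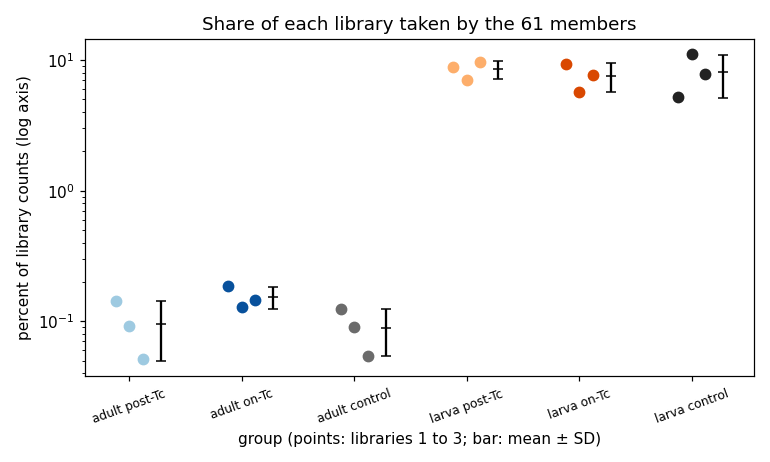
Percent of each library's counts held by the 61 members (log axis), with 1 point per library and the mean ± SD of each group beside the points. Adult libraries lie between 0.0515% and 0.186%, and larval libraries between 5.23% and 11.1%.

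Among the larval libraries, control 2, post-Tc 1 and post-Tc 2 stand apart from the other 6 on the first principal component of log2 CPM, which held 31.3% of larval variance (58.4, 44.4 and 69.5 on that axis, against -61.6 to -0.628). The other 6 are themselves widely spread on that axis, so the split is a matter of degree. It crosses the treatment groups and touches the stage calls post-Tc. Without these 3 libraries all 51 on-Tc calls given below remained. Some post-Tc calls were lost, in a fit that leaves larval post-Tc with 1 library. The named members that lost a call are given below with their difference in that fit, though not all with their main difference.

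**Figure D2:**
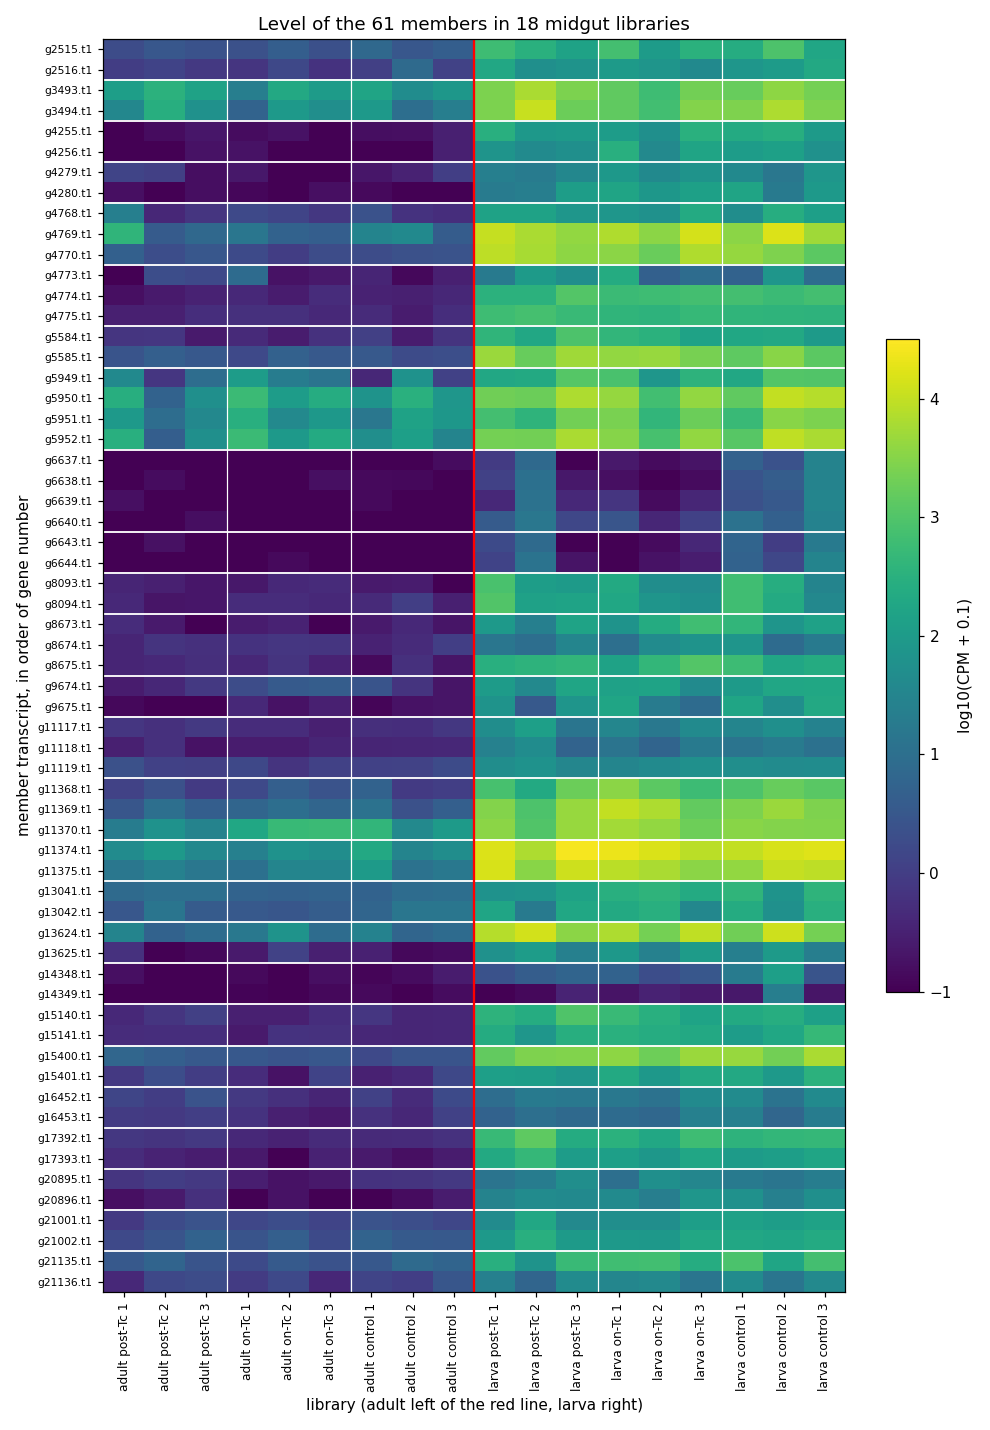
Level of each member (rows, in order of gene number, with white lines between runs) in each of the 18 libraries (columns), as log10(CPM + 0.1). Adult columns stand left of the red line and are dark in most rows, and the rows of g5949 to g5952, g3493 and g3494 are among the few with brighter adult columns.

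The stage comparison can be made between libraries the choice did not use, adult against larval within post-Tc and within on-Tc, and these 2 comparisons share no library. Nearly all members were again lower in adults. After tetracycline 60 of 60 members tested were lower in adults by edgeR's quasi-likelihood test (FDR under 0.05 over 12599 transcripts), where 14.9% of all transcripts tested were lower. On tetracycline 51 of 60 were lower and 9 were not called, where 12.5% of all transcripts tested were lower. No member was higher in adults in either comparison. These fits use all 18 libraries, so that the count filter and the estimate of spread draw on the controls as well. With only the 6 libraries of a comparison in the fit, edgeR called 54 of 56 members post-Tc and 53 of 55 on-Tc (26.5% and 22.4% of all transcripts in either direction). Of the members, DESeq2 called 60 post-Tc and 55 on-Tc (36.7% and 31.3% of all transcripts in either direction), and limma-voom 52 and 48 (27.9% and 22.8%). The remaining member, g14349, had too few counts to be tested. The median log2 difference, adult minus larva, was -7.45 post-Tc and -7.28 on-Tc over the members, against -0.04 and -0.01 over all transcripts tested. Where the adult counts were 0 and a floor of 3 counts per adult library was used instead, the member medians were -7.28 and -6.99.

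A transcript that passes the count filter only because larvae express it has to differ between stages. Of the 61 members, 44 had enough counts to pass in the adult libraries alone, and of these 44 were lower in adults post-Tc and 40 on-Tc. The other 17 passed only through larval libraries or not at all. Without any test, all 3 adult libraries lay below all 3 larval ones in 58 members post-Tc (15% of all transcripts with a count) and in 56 on-Tc (18%). All 9 adult libraries lay below all 9 larval ones in 53 members (5.04% of transcripts), with the controls that served the choice included. The 8 members that overlapped were g4773, g5949, g14349 and 5 of the 6 members between g6637 and g6644. Candidates that stand alone gave 175 of 184 lower in adults post-Tc and 169 of 184 on-Tc, so the members' counts are not set apart from theirs by any test made here. In bulk RNA, fewer cells of a type and less RNA per cell cannot be told apart.

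The 9 members without a call on tetracycline lie in 3 stretches of the numbering. They are g4773; g5949, g5950 and g5952; and g6637, g6638, g6639, g6643 and g6644. Their log2 differences ran from -6.63 for g6639 to -0.85 for g6638. The difference between the post-Tc and the on-Tc stage contrast was tested as an interaction and passed for 0 of 60 members (edgeR, smallest FDR 0.341). Of the 60 members 11 had an unadjusted p under 0.05, a larger share than the 10.6% of all 12599 transcripts. As no member passed the threshold, the lack of a call on tetracycline is not shown to be a difference between treatments.

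**Figure D3:**
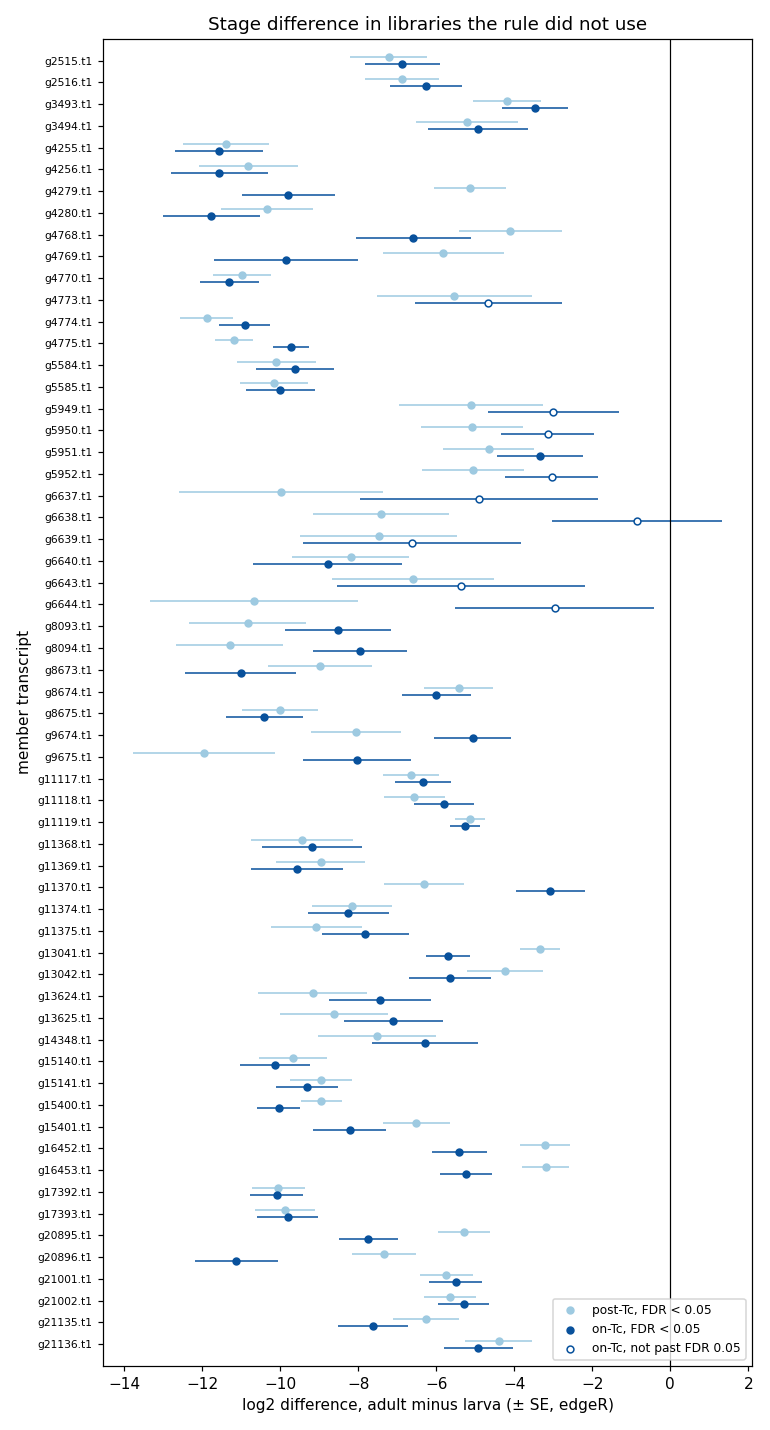
Log2 difference, adult minus larva, of each member tested (rows) with its SE from edgeR, for post-Tc libraries (pale) and on-Tc libraries (dark). Filled points passed an FDR of 0.05, all points lie below 0, and the open points are the 9 members that were not called on tetracycline.

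The 5 members between g11368 and g11375 held 41.1% of the members' CPM in larvae on or after tetracycline. In adults, g11374 had 44.1, 95.6 and 37.3 CPM post-Tc, 25, 62.6 and 50.2 CPM on-Tc and 212, 30.4 and 49.8 CPM in controls. In larvae it had 16488.5, 6740.0 and 26783 CPM post-Tc, 21559, 15621.5 and 8630.1 CPM on-Tc and 9758, 14621 and 17103 CPM in controls, so that every larval library lay above every adult one. Its log2 difference, adult minus larva, was -8.16 ± 1.03 (SE; edgeR FDR 4.9e-05) post-Tc and -8.26 ± 1.04 (SE; edgeR FDR 5.2e-05) on-Tc. Its neighbour g11375 had 14.9, 26.4 and 14.7 CPM post-Tc, 10.6, 31.4 and 32.2 CPM on-Tc and 97.4, 11.6 and 16.1 CPM in controls among adults. Larval levels of g11375 were 14465, 3279.9 and 11837 CPM post-Tc, 8324.5, 6246.5 and 3494 CPM on-Tc and 4094, 10351.5 and 9058 CPM in controls. Both members were lowest among larvae in post-Tc 2, and adult control 1 was their highest adult library.

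The run g11368 to g11370 starts 6 gene numbers before g11374. For g11369 the adult levels were 2.92, 9.95 and 4.26 CPM post-Tc, 6.19, 9.57 and 5.99 CPM on-Tc and 11.9, 2.16 and 4.44 CPM in controls. The larval levels of g11369 were 3092, 908 and 4519 CPM post-Tc, 9794, 6725 and 1473 CPM on-Tc and 2614.5, 4667 and 2766 CPM in controls, with on-Tc 1 highest and post-Tc 2 lowest. It was lower in adults at a log2 difference of -8.96 ± 1.14 (SE; edgeR FDR 4.9e-05) post-Tc and -9.57 ± 1.17 (SE; edgeR FDR 4.0e-05) on-Tc. The first member of the run, g11368, behaved like it, at -9.44 ± 1.30 (SE; edgeR FDR 9.9e-05) and -9.19 ± 1.29 (SE; edgeR FDR 1.3e-04).

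The third, g11370, was readily detected in adults as well. Its adult levels were 20, 64.9 and 29.4 CPM post-Tc, 189, 505 and 571 CPM on-Tc and 416, 39.4 and 101 CPM in controls. In larvae it had 3433, 1029 and 4553 CPM post-Tc, 5399, 4118 and 1956 CPM on-Tc and 3289, 2951 and 2903 CPM in controls. On tetracycline its log2 difference between stages was -3.08 ± 0.88 (SE; edgeR FDR 0.0195), and post-Tc it was -6.31 ± 1.03 (SE; edgeR FDR 4.0e-04). The on-Tc call depended on adult on-Tc 1, without which the difference was -2.73 (edgeR FDR 0.0772). Within adults g11370 was lower post-Tc than on-Tc without passing the threshold, at -3.34 ± 1.01 (SE; edgeR FDR 0.121), while DESeq2 called it (-3.38, FDR 0.00286).

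The runs g4768 to g4770 and g4773 to g4775 lie 3 gene numbers apart. The level of g4769 was 399.7, 3.71 and 7.09 CPM post-Tc, 14.3, 5.31 and 4.39 CPM on-Tc and 30.1, 41.2 and 3.97 CPM in controls among adults. Among larvae it was 10367, 6455 and 4157 CPM post-Tc, 6901, 3582 and 14207.5 CPM on-Tc and 3514, 15909.8 and 5109 CPM in controls. Adult post-Tc 1 stood far above the other 8 adult libraries but still below every larval library. Both stage comparisons passed for g4769, at -5.82 ± 1.56 (SE; edgeR FDR 0.0115) post-Tc and -9.85 ± 1.85 (SE; edgeR FDR 0.00141) on-Tc. With only the 6 post-Tc libraries in the fit the post-Tc difference was -5.75 (edgeR FDR 0.0608), and without the larval libraries that stand apart it was -5.12 (edgeR FDR 0.0586). Adult post-Tc 1 was also the highest adult library of g4768, with 23.1, 0.305 and 0.591 CPM in the post-Tc libraries, and its post-Tc difference was -4.10 ± 1.31 (SE; edgeR FDR 0.0275). That call was lost with only the 6 post-Tc libraries in the fit (-4.03, edgeR FDR 0.0932), without the larval libraries that stand apart (-3.47, edgeR FDR 0.133) and without adult post-Tc 2, adult post-Tc 3 or larval post-Tc 1 (edgeR FDRs from 0.0573 to 0.0811).

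The next member, g4770, was low in every adult library, post-Tc 1 included. Its adult levels were 4.77, 1.85 and 2.99 CPM post-Tc, 1.64, 0.892 and 1.80 CPM on-Tc and 1.80, 2.21 and 2.40 CPM in controls. Its larval levels were 8901.5, 6151 and 3638 CPM post-Tc, 3482, 1747 and 6926 CPM on-Tc and 4363, 2730.3 and 1312 CPM in controls. The log2 difference was -10.98 ± 0.75 (SE; edgeR FDR 1.1e-07) post-Tc and -11.31 ± 0.76 (SE; edgeR FDR 9.2e-08) on-Tc. In larval libraries g4768 and g4769 kept a steady ratio, within 2.25-fold over 9 libraries, whereas the ratio of g4769 to g4770 ranged 7.24-fold.

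In the run g4773 to g4775 the members differ in how steady they are. The larval levels of g4775 were 615, 773 and 544 CPM post-Tc, 398, 354 and 474 CPM on-Tc and 402, 378 and 360.4 CPM in controls. Its adult levels were 0.202, 0.203 and 0.414 CPM post-Tc, 0.489, 0.487 and 0.333 CPM on-Tc and 0.367, 0.166 and 0.418 CPM in controls. The 9 larval values span only 2.19-fold, and the stage difference was -11.19 ± 0.49 (SE; edgeR FDR 1.4e-09) post-Tc and -9.73 ± 0.47 (SE; edgeR FDR 3.3e-09) on-Tc, the smallest FDR of any member in both comparisons. For g4774 it was -11.89 ± 0.68 (SE; edgeR FDR 2.0e-08) and -10.91 ± 0.65 (SE; edgeR FDR 3.1e-08), with larval values that span 3.08-fold. By contrast g4773 had 0, 1.88 and 1.54 CPM post-Tc, 8.42, 0.081 and 0.133 CPM on-Tc and 0.27, 0.033 and 0.209 CPM in controls among adults. Larval g4773 had 18.6, 99.5 and 53.1 CPM post-Tc, 239, 4.77 and 8.62 CPM on-Tc and 5.33, 78.9 and 8.90 CPM in controls. Its larval values span 50.1-fold, adult on-Tc 1 lay above the lowest larval value, and its differences were -5.54 ± 1.98 (SE; edgeR FDR 0.046) and -4.67 ± 1.88 (SE; edgeR FDR 0.0837). The post-Tc call of g4773 was lost in all 6 fits that left out a post-Tc library (edgeR FDRs from 0.057 to 0.117). It was lost without the larval libraries that stand apart too (-5.54). Limma-voom (FDR 0.0766) and edgeR with replicate number in the model (FDR 0.0596) did not call it either. On tetracycline g4773 passed by DESeq2 (-4.76, FDR 0.0243) and without adult on-Tc 1 (-9.41, edgeR FDR 0.0224).

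The 4 members g5949 to g5952 were detected in adults as well as in larvae, and varied widely in both. Adult g5950 had 279.7, 5.15 and 54.3 CPM post-Tc, 559.6, 112 and 253 CPM on-Tc and 68.1, 315 and 79.2 CPM in controls. Larval g5950 had 2041, 1842 and 6605 CPM post-Tc, 4250.2, 685 and 4091 CPM on-Tc and 1462, 10033 and 7864.5 CPM in controls. Adult libraries spanned 109-fold and larval ones 14.6-fold, and adult on-Tc 1 lay close to the lowest larval library, on-Tc 2. Adult g5952 had 289, 4.24 and 54.9 CPM post-Tc, 558.5, 94 and 228 CPM on-Tc and 52.9, 124 and 30 CPM in controls. Larval g5952 had 2233, 2134 and 6303.5 CPM post-Tc, 3107, 777 and 4097 CPM on-Tc and 1160.4, 9546 and 6353 CPM in controls. For both, on-Tc 1 was the highest and post-Tc 2 the lowest of the 9 adult libraries.

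After tetracycline all 4 members of that run were lower in adults. The log2 differences were -5.11 ± 1.85 (SE; edgeR FDR 0.0488) for g5949, -5.09 ± 1.31 (SE; edgeR FDR 0.00909) for g5950, -4.66 ± 1.17 (SE; edgeR FDR 0.00801) for g5951 and -5.07 ± 1.31 (SE; edgeR FDR 0.00926) for g5952. On tetracycline only g5951 passed, at -3.35 ± 1.10 (SE; edgeR FDR 0.037). It lost that call in 4 of the 6 fits that left out an on-Tc library (edgeR FDRs from 0.0775 to 0.119). With replicate number in the model it was lost as well (edgeR FDR 0.051). The other members of the run stood at -3.0 ± 1.68 (SE; edgeR FDR 0.212) for g5949, -3.14 ± 1.19 (SE; edgeR FDR 0.0671) for g5950 and -3.04 ± 1.19 (SE; edgeR FDR 0.0749) for g5952. Both g5950 and g5952 passed on-Tc with only the 6 on-Tc libraries in the fit (edgeR FDRs 0.0375 and 0.0389) and by DESeq2 (FDRs 0.00838 and 0.0111). The post-Tc call of g5949 was also lost in 5 of the 6 fits without a post-Tc library (edgeR FDRs from 0.0528 to 0.147). It was lost without the larval libraries that stand apart too (-6.28). Scaling by library totals alone, no count filter, or replicate number or library-name digit in the model also lost it (edgeR FDRs from 0.0515 to 0.0667).

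The 6 members g6637 to g6640, g6643 and g6644 were near absent from adults and irregular in larvae. In larvae g6637 had 0.819, 7.58 and 0 CPM post-Tc, 0.132, 0.043 and 0.097 CPM on-Tc and 5.12, 2.31 and 28.6 CPM in controls, and in adults a single count in control 3. Larval g6640 had 3.73, 15.2 and 1.36 CPM post-Tc, 2.75, 0.298 and 1.04 CPM on-Tc and 11.5, 4.69 and 27.1 CPM in controls. Larval g6644 had 1.18, 12.3 and 0.097 CPM post-Tc, 0, 0.085 and 0.169 CPM on-Tc and 5.39, 1.40 and 30.4 CPM in controls. Control 3 was the highest larval library for all 6 members and post-Tc 2 the highest of the 6 larval tetracycline libraries. All of the on-Tc libraries and post-Tc 3 lay near or at 0 for most of these members.

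Over the 9 larval libraries these 6 members spanned 91.1-fold for g6640 to 508-fold for g6639, with libraries under 3 counts set at 3. Against a floor of 3 counts per library, g6637 was at least 31.6-fold and g6644 at least 51.0-fold lower in adults post-Tc, where neither had an adult count. On tetracycline g6640 was at least 15.8-fold and g6639 at least 3.58-fold lower. Levels of g6637 and g6643 in larvae on tetracycline were near that floor, with 10 and 15 counts in 3 libraries together, and no fold is given for them. Several post-Tc calls of this stretch rested on larval post-Tc 1 and 2. Without the larval libraries that stand apart, g6637 had a difference of 0 (edgeR FDR 1), g6638 of -2.66 (edgeR FDR 0.34), g6639 of -3.93 (edgeR FDR 0.176) and g6644 of -5.28 (edgeR FDR 0.19). The call of g6639 was also lost without adult post-Tc 2, adult post-Tc 3 or larval post-Tc 2 (edgeR FDRs from 0.0567 to 0.0933). Limma-voom did not call g6637, g6638, g6639 and g6644 post-Tc (FDRs from 0.104 to 0.164). On tetracycline, where edgeR did not call g6639, DESeq2 did (-5.90, FDR 0.00848).

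Another pair that owes its place to a single library is g14348 and g14349. Larval g14348 had 2.29, 4.01 and 5.87 CPM post-Tc, 5.36, 1.87 and 2.95 CPM on-Tc and 19, 127 and 2.63 CPM in controls. Larval g14349 had 0, 0.034 and 0.258 CPM post-Tc, 0.099, 0.234 and 0.145 CPM on-Tc and 0.126, 21.9 and 0.102 CPM in controls. Control 2, one of the 3 larval libraries that stand apart, was far above the rest for both, and outside it g14349 never exceeded 0.258 CPM. In adults g14348 was lower, at a log2 difference of -7.52 ± 1.51 (SE; edgeR FDR 0.0019) post-Tc and -6.29 ± 1.37 (SE; edgeR FDR 0.00393) on-Tc. Its adult counts were only 2 over the post-Tc and 5 over the on-Tc libraries, so the size of these differences is uncertain. It passed the count filter only through larval libraries, which by itself favours a difference between stages.

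**Figure D4:**
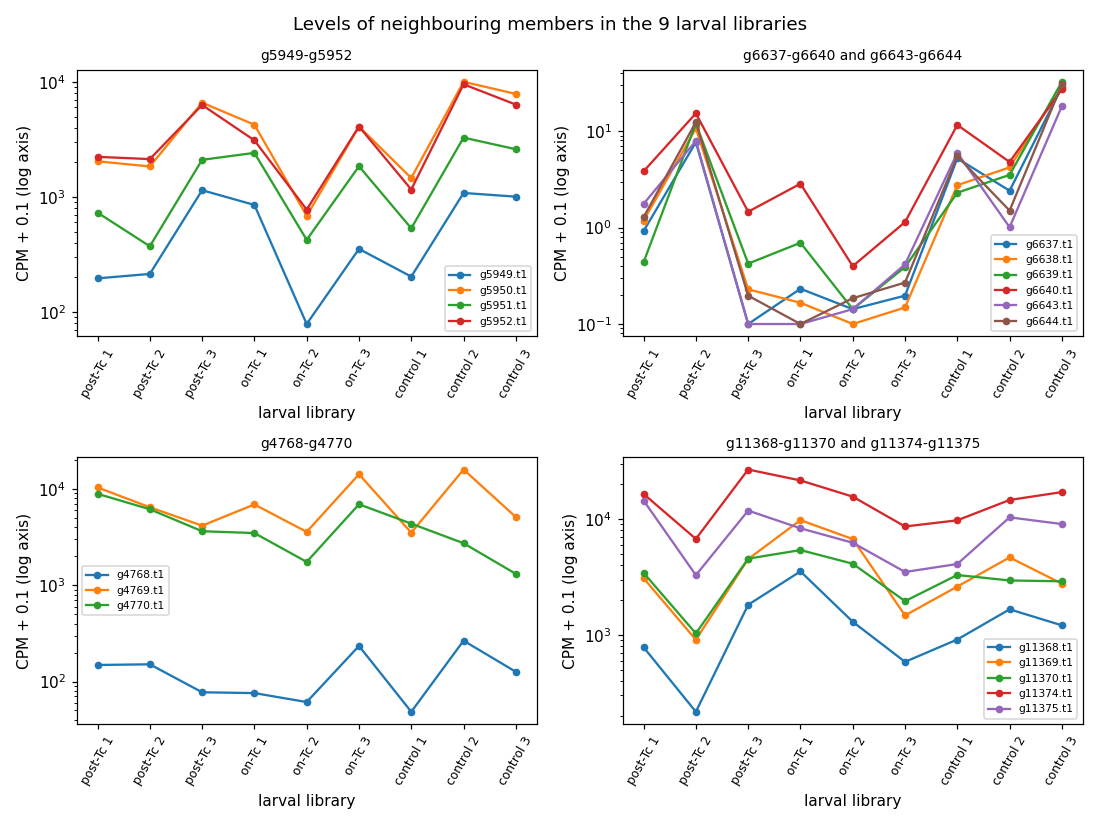
CPM plus 0.1 (log axis) of neighbouring members in the 9 larval libraries, with 1 line per transcript, in 4 panels for g5949 to g5952, for g6637 to g6644, for g4768 to g4770 and for g11368 to g11375. In the first panel the ratio of g5949 to g5950 ranged 2.32-fold and that of g5951 to g5952 4.46-fold. In the last, that of g11368 to g11369 ranged 2.26-fold, but from post-Tc 3 to on-Tc 1 g11368 rises while g11374 falls. The g6637 to g6644 panel peaks at post-Tc 2 and control 3.

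In 2 other abundant runs, g15400 spanned 4.23-fold and g5585 3.83-fold over the 9 larval libraries, while g5584 beside g5585 spanned 8.9-fold. Larval g15400 had 1485, 2714 and 2824 CPM post-Tc, 3727, 1895 and 4717 CPM on-Tc and 4469.9, 2119.8 and 6274 CPM in controls. Adult g15400 had 6.45, 4.60 and 3.31 CPM post-Tc, 3.25, 2.64 and 3.03 CPM on-Tc and 1.51, 2.61 and 2.61 CPM in controls. It was lower in adults, at a log2 difference of -8.95 ± 0.52 (SE; edgeR FDR 2.4e-08) post-Tc and -10.04 ± 0.55 (SE; edgeR FDR 1.1e-08) on-Tc. Larval g5585 had 4610.4, 1657 and 5090.1 CPM post-Tc, 4033, 4530.5 and 2336 CPM on-Tc and 1347.5, 3284 and 1329 CPM in controls. Its adult libraries held 2.55, 4.44 and 3.10 CPM post-Tc, 1.55, 4.95 and 3.39 CPM on-Tc and 3.34, 1.70 and 2.04 CPM in controls, and it was lower in adults post-Tc, at -10.16 ± 0.88 (SE; edgeR FDR 1.5e-06), and 1023-fold lower on-Tc (edgeR FDR 1.9e-06).

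Larval post-Tc 2 was the highest larval library for g13624, g3494 and g17392, which lie in 3 separate runs. Larval g13624 had 7633, 13499 and 3429 CPM post-Tc, 6773, 2196 and 9302 CPM on-Tc and 2008, 11989 and 2237 CPM in controls. Adult g13624 had 30.3, 5.28 and 8.69 CPM post-Tc, 16, 65.9 and 8.59 CPM on-Tc and 27.6, 6.22 and 8.19 CPM in controls. Its differences were -9.17 ± 1.40 (SE; edgeR FDR 2.4e-04) and -7.45 ± 1.31 (SE; edgeR FDR 8.2e-04). Larval g3494 had 2547, 10686 and 1880.1 CPM post-Tc, 1417, 686.5 and 3064 CPM on-Tc and 2756, 6552 and 2763.5 CPM in controls. Adult g3494 had 34.4, 279 and 60.4 CPM post-Tc, 5.59, 91.2 and 53.2 CPM on-Tc and 87.8, 9.70 and 21.9 CPM in controls, and the stages did not overlap.

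The post-Tc stage difference of g3494 was -5.21 ± 1.30 (SE; edgeR FDR 0.00783), which moved to -3.91 (edgeR FDR 0.07) without the larval libraries that stand apart, and the on-Tc difference was -4.93 ± 1.28 (SE; edgeR FDR 0.0117). Adult levels of g17392 were all under 1 CPM, from 0.243 to 0.739 CPM, against 201 to 1392 CPM in larvae. Its differences were -10.05 ± 0.67 (SE; edgeR FDR 8.8e-08) and -10.09 ± 0.68 (SE; edgeR FDR 9.2e-08). The members with the smallest post-Tc differences were g16452 and g16453, at -3.21 ± 0.64 (SE; edgeR FDR 0.00176) and -3.20 ± 0.61 (SE; edgeR FDR 0.00124), and on-Tc they stood at -5.41 ± 0.71 (SE; edgeR FDR 7.4e-05) and -5.23 ± 0.67 (SE; edgeR FDR 6.0e-05).

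Within larvae no member passed the threshold in any comparison between treatment groups, and the 3 comparisons share libraries. Between post-Tc and on-Tc larvae edgeR called 0 of 61 members (0% of 11584 transcripts were called, smallest member FDR 0.811). Of the members 10 (16.4%) had an unadjusted p under 0.05, where 5.33% of all transcripts did, and 9 of them were higher post-Tc (3.01% of all). On-Tc against control gave edgeR calls for 0 members (0% of all), with 8 (13.1%) at an unadjusted p under 0.05, where 2.45% of all did, and all 8 were lower on-Tc (1.48% of all). Post-Tc against control gave 0 (0% of all), with 6 members (9.84%) at an unadjusted p under 0.05, 4 higher and 2 lower, where 2.38% of all did. DESeq2 called 3, 4 and 1 members in these comparisons (0.19%, 0.138% and 0.0432% of all) and limma-voom 0 in each.

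The unadjusted counts come mostly from the stretch g6637 to g6644, whose 6 members all had a p under 0.05 in the first 2 of these comparisons and move together. The on-Tc minus control log2 differences of the 6 ran from -8.35 for g6638 to -3.47 for g6640. Because members were chosen for a high level in larval controls, a lower level in larvae of any other group is favoured by the choice. The post-Tc against on-Tc contrast does not compare with the controls, though its count filter, scaling and estimate of spread draw on them. There g6638 stood at 6.81 ± 1.87 (SE; edgeR FDR 0.811) and g4775 at 0.84 ± 0.22 (SE; edgeR FDR 0.811). The value of g6638 rests on 45, 625 and 4 counts post-Tc against 2, 0 and 2 on-Tc. For g4775 the 3 post-Tc libraries lay above the 3 on-Tc and the 3 control libraries. DESeq2 called g4775 both post-Tc against on-Tc (0.82, FDR 0.0057) and post-Tc against control (0.90, FDR 0.00171).

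Within adults no member passed either, among the 44 with enough counts to test. Between post-Tc and on-Tc adults edgeR called 0 of 44 members (0.437% of 11435 transcripts were called). There 11 members (25%) had an unadjusted p under 0.05, 9 higher and 2 lower post-Tc, where 21.5% of all transcripts did. On-Tc against control gave 0 (0.236% of all), with 4 members (9.09%) at an unadjusted p under 0.05, where 21.2% of all did. Post-Tc against control gave 0 by edgeR (0% of all), with 2 members (4.55%) at an unadjusted p under 0.05, where 6.55% of all did. Members were chosen for a low level in adult controls, so a higher level in the other group of these comparisons with control is favoured by the choice. The members' shares at an unadjusted p under 0.05 by edgeR were thus near or below those of all transcripts. DESeq2 called 6, 1 and 1 of 41 members (11.4%, 9.98% and 0.726% of all) and limma-voom 0 in each (0.516%, 0.201% and 0% of all). By DESeq2 the members' share was above that of all transcripts post-Tc against on-Tc and post-Tc against control, the latter on 1 member.

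The smallest adult FDR was that of g20895. It had 0.605, 0.889 and 0.709 CPM post-Tc, 0.188, 0.081 and 0.133 CPM on-Tc and 0.541, 0.566 and 0.731 CPM in controls in adults, and the on-Tc libraries lay below all others. Post-Tc minus on-Tc it stood at 2.47 ± 0.44 (SE; edgeR FDR 0.0599) and on-Tc minus control at -2.07 ± 0.44 (SE; edgeR FDR 0.0883), and these share the on-Tc libraries. DESeq2 called g20895 in both (2.41, FDR 9.2e-04, and -2.01, FDR 0.00906). Adult g15400 was higher in the 3 post-Tc libraries than in the 3 on-Tc and the 3 control libraries, at 1.22 ± 0.27 (SE; edgeR FDR 0.597) against control, where DESeq2 called it (1.21, FDR 0.0135).

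Neighbouring members tended to share their larval pattern, which the choice by group means did not use. In 22 of 35 adjacent member pairs (62.9%) the same library was the highest of the 6 larval tetracycline libraries. Among 6077 other adjacent pairs of gene numbers with at least 10 counts in each of the 6 libraries this held in 27.2%, and among 1784 pairs of members from different runs in 17.7%. That minimum was not set for the member pairs. The adjacent pairs within g6637 to g6640, g6643 to g6644 and g14348 to g14349 fall below it, and all of these are among the 22. Without the larval libraries that stand apart, the shares were 65.7%, 36.2% and 28.1% over 4 libraries. In 15 of the 26 runs all members had the same highest larval tetracycline library. Pairs share libraries and runs share members, so these shares are given as a description with no test.

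The ratio between neighbours was also steadier than that between members of different runs. The SD of the log2 ratio over the 9 larval libraries had a median of 0.559 in adjacent pairs and 1.57 in pairs from different runs. Without the larval libraries that stand apart the medians were 0.432 and 1.38. These sets include controls that served the choice, and over the 6 larval tetracycline libraries the medians were 0.569 and 1.53. Other adjacent pairs of gene numbers were not measured in this way, so steadier ratios are not shown to be particular to members. In 26 of 35 adjacent pairs the ratio varied less than either member did. The ratio of g16452 to g16453 stayed between 1.70 and 2.08 over the 9 larval libraries, while g16452 itself spanned 5.08-fold. That of g11117 to g11118 stayed between 1.91 and 2.85, and that of g8093 to g8094 between 0.622 and 1.17 while both spanned about 27-fold (27.2 and 27.3). A pair separated by g5951, g5950 to g5952, kept a ratio of 0.863 to 1.37 in larvae and of 0.967 to 2.64 in adults, where the members spanned 109-fold and 132-fold. The least steady adjacent pair was g4773 to g4774, whose ratio ranged 57.0-fold. Reads shared between near-identical copies could have been divided or dropped when counted, so the counts of such neighbours are uncertain, and the part of this in the ratios was not tested.

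In adults neighbours again often shared their highest library. Of 12 adjacent pairs with both members at a mean of at least 1 CPM over the 6 adult tetracycline libraries, 8 (66.7%) had the same highest library, against 27.6% of 5849 other adjacent pairs at that level. Ratios between adult neighbours varied from pair to pair. Over the 9 adult libraries the ratio of g16452 to g16453 ranged 2.12-fold and that of g11368 to g11369 2.58-fold, but that of g4768 to g4769 ranged 17.7-fold, that of g5949 to g5950 43.8-fold and that of g4769 to g4770 50.7-fold.

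The gene numbers around the runs held both larval and adult transcripts. A window of 5 gene numbers on either side, chosen after the values were seen, lists 237 transcripts that are not members, of which 10 are candidates standing alone. Of the 149 tested, post-Tc 32 were lower in adults (21.5%, against 14.9% of all), 38 higher (25.5%, against 15.8% of all) and 79 not called. On tetracycline 27 were lower (18.1%, against 12.5% of all), 23 higher (15.4%, against 12.2% of all) and 99 not called. Of the 34 tested that stand directly next to a run, 8 were lower (23.5%) and 4 higher (11.8%) post-Tc, and 8 lower (23.5%) and 2 higher (5.88%) on-Tc. None of the 34 can be a candidate, since it would then be a member, so their share of lower transcripts is limited by the choice. In the whole window 19 neighbours, beside 13 runs, were higher in adults in both comparisons.

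The stretch of g11366 to g11380 shows both directions side by side. Between the members g11370 and g11374 lies g11373, with 14601, 22942 and 10008 CPM post-Tc, 6723, 23459.6 and 17319.8 CPM on-Tc and 66948, 16193 and 29215 CPM in controls in adults. In larvae g11373 had 2109.6, 1339 and 793 CPM post-Tc, 1331.5, 101 and 639 CPM on-Tc and 801, 2291 and 1734 CPM in controls. It was higher in adults, by 3.48 ± 0.89 (SE; edgeR FDR 0.00903) post-Tc and 4.69 ± 0.95 (SE; edgeR FDR 0.00234) on-Tc, where the members on either side were lower. Directly after the member g11375, g11376 was higher in adults by 5.35 ± 1.10 (SE; edgeR FDR 0.00225) and 7.04 ± 1.19 (SE; edgeR FDR 6.2e-04). So were g11378, by 5.41 ± 1.36 (SE; edgeR FDR 0.00829) and 7.34 ± 1.49 (SE; edgeR FDR 0.00248), and g11380, by 5.89 ± 1.30 (SE; edgeR FDR 0.00354) and 8.26 ± 1.30 (SE; edgeR FDR 3.5e-04). Between them g11379, not a member, had 1838, 751 and 3487 CPM in larvae and 4.81, 41.3 and 4.29 CPM in adults post-Tc. On-Tc g11379 was not called, at -4.5 ± 1.66 (SE; edgeR FDR 0.0605). Nor were g11366, g11371 and g11377 called on-Tc (edgeR FDRs 0.198, 0.908 and 0.54).

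Beside the run g15400 to g15401, the transcript g15404 was higher in adults by 9.16 ± 1.32 (SE; edgeR FDR 1.4e-04) post-Tc and 9.46 ± 1.30 (SE; edgeR FDR 1.1e-04) on-Tc. In the other direction, g4766, a candidate standing alone before the run g4768 to g4770, was lower in adults, at -10.66 ± 1.07 (SE; edgeR FDR 5.6e-06) and -10.31 ± 1.06 (SE; edgeR FDR 8.3e-06), while g4767 between them was not called. The 2 gene numbers between g6640 and g6643 were low like their neighbours but under the level threshold, with at most 4.82 CPM in any larval library.

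**Figure D5:**
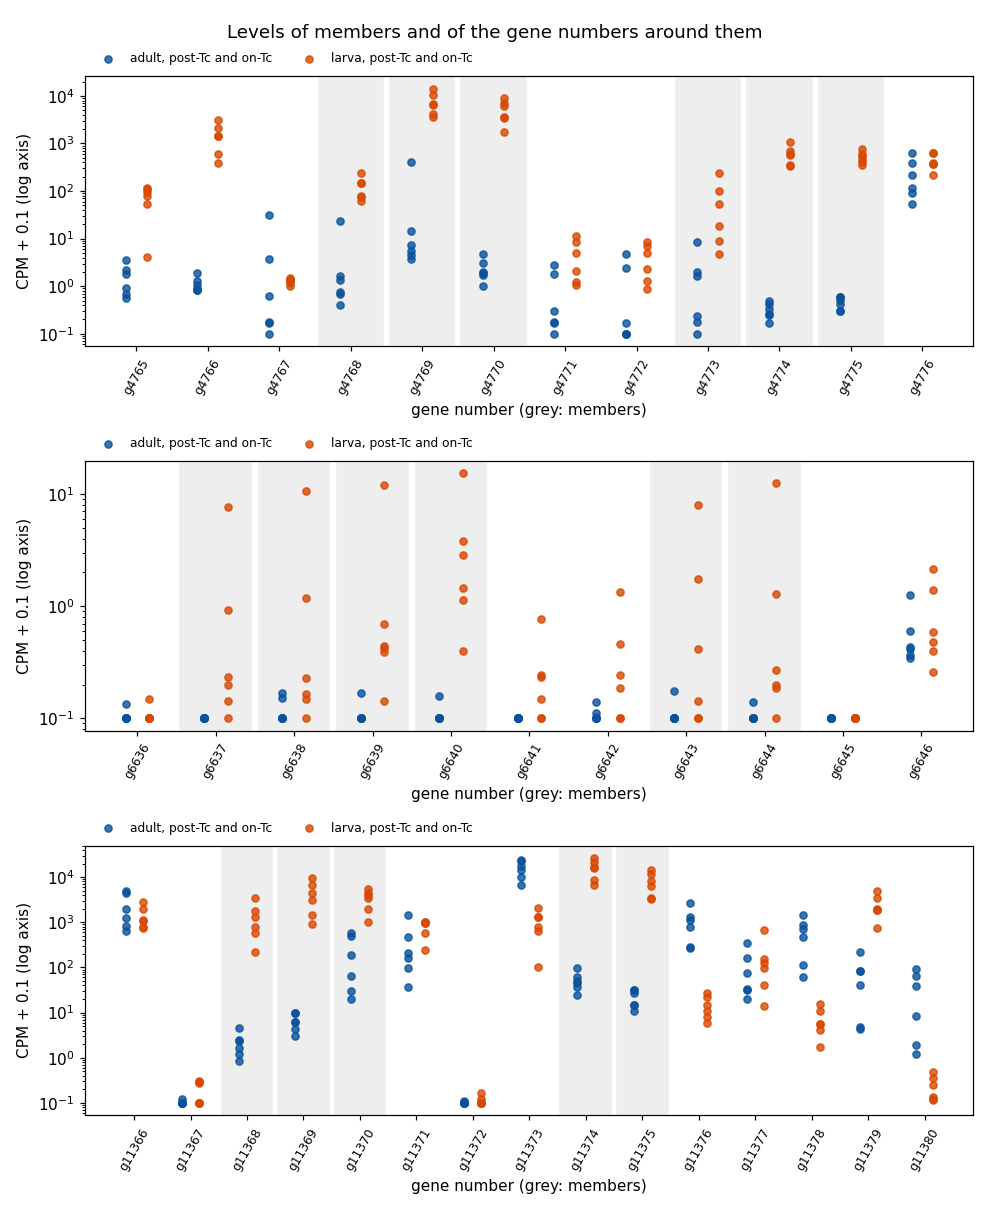
CPM plus 0.1 (log axis) of each gene number in 3 stretches, with 1 point per tetracycline library, adults in blue left of larvae in orange, and members shaded grey. In the lowest panel g11373, g11376, g11378 and g11380 have adult points above larval points. The members around them and g11379, which is not a member, have larval points above adult points.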

How the data were processed

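Poly(A)-selected midgut RNA was sequenced in 18 libraries, with NEBNext kits per the labels' protocols. The authors deposited raw counts per predicted transcript, as the whole numbers and unequal column sums of the table show. Trimmomatic, STAR, featureCounts and DESeq2 are named without versions in the submitters' processing notes. Not given in the sources used here are the build, annotation, strand setting and treatment of read pairs. Even values were frequent among counts of 1 to 20 (63% to 71.3% of them by library, against 50.7% to 54.4% of counts over 100), so halved counts were tried.

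CPM is count times 1000000 over the library total. Counts were tested with edgeR 4.0.16 in R 4.3.3 after filterByExpr (minimum count 10, minimum total 15), with TMM scaling, the quasi-likelihood test and Benjamini-Hochberg adjustment over all transcripts tested (FDR under 0.05). Stage comparisons and the interaction used all 18 libraries, and treatment comparisons the 9 of a stage. Other settings tried were RLE factors, DESeq2 1.42.0, limma-voom with limma 3.58.1, library totals, other filters and a replicate block. Also tried were the library-name digit in the model, the 6 libraries of a comparison alone and halved counts. Each library of the groups compared was left out in turn, as were the 3 larval libraries that stand apart together. The code was tested on simulated data. Replicate libraries differed far beyond sampling noise (lowest chi-square over its degrees of freedom 271), so none was counted as a duplicate. Floors are 3 counts per library (0.0376 to 0.157 CPM) and cover counting error only. Figures were drawn with matplotlib 3.10.9.

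The members and lists were chosen with earlier results of these data known. Named members are those of the 5 longest runs, the most abundant member of the 10 most abundant runs, members nearest the thresholds, the 3 highest in adults on or after tetracycline, and the 3 uncalled ones with the largest p between stages. Other members and all neighbours were named after their values were seen. Lists of pathway or marker genes could not be used, since IDs carry no names.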

Additional observations from a re-analysis of the deposited data

How the results depend on the processing

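The stage calls of members held within 1.5 times their main number under every alternative run. On tetracycline 48 members were lower in adults by limma-voom and 55 by DESeq2, and 50 to 51 with a library left out. After tetracycline it was 52 by limma-voom, 60 by DESeq2, 55 to 58 with a library left out, and 51 without the 3 larval libraries that stand apart, which leaves larval post-Tc with 1 library, assumed to vary like the others. Replicate numbers do not pair the libraries (correlations of deviations from -0.363 to 0.331, in no comparison all above 0.1), and with the replicate block 50 and 57 members were lower in adults on-Tc and post-Tc and 0 were called in each treatment comparison. Leaving out any library of the groups compared gave 0 members in each treatment comparison. DESeq2 called 3 members for larval post-Tc against on-Tc, 4 for larval on-Tc against control, 1 for larval post-Tc against control, 6 for adult post-Tc against on-Tc, 1 for adult on-Tc against control and 1 for adult post-Tc against control. Halved counts called 1, g20895 in adult post-Tc against on-Tc (edgeR FDR 0.0482). The cause of these differences was not tested. The on-Tc stage difference of g6638 ran from -3.68 to 0.12 with a library left out (0.12 without adult on-Tc replicate 1), and the post-Tc one of g6637 was 0 without the 3 larval libraries that stand apart, both with few or no counts in adults. Over the named members, 7 alternative values gained and 7 lost a call on-Tc, and 38 lost one post-Tc. Totals in place of TMM moved the median of all transcripts by -0.19 for larval post-Tc against on-Tc and by -0.14 to 0.05 elsewhere. With a ratio of 8 or 32 in the rule the list holds 91 or 48 members, with a level of 1 or 10 CPM 82 or 57, and with a distance of 2 it holds 76.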
